A study of Mus musculus with 860 samples.

Results

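The 32 genes described here carry glucose into the cell, break it down to pyruvate, and turn the pyruvate into lactate or pass it to the mitochondrion. They were chosen by name, as transporters, enzymes and regulators of glycolysis, lactate handling and pyruvate entry, and all 32 were found among the 46078 genes of the count table. Single cells were index sorted from the AGM, the aorta-gonad-mesonephros region where the first hematopoietic stem cells (HSCs) arise in the wall of the dorsal aorta. Each cell gave 1 Smart-Seq2 library, a full-length cDNA method without molecular identifiers, and of 860 sequenced cells the study kept 775, in 11 Louvain clusters (groups of cells with similar transcriptomes). The embryos carried the Gfi1:tomato reporter on a CD1 background (strain CD1/Gf1+ in the labels), no cell was treated, and AGMs were pooled before the sort without a record of which embryo a cell came from.

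The sort separated GFI1+ hemogenic endothelium (HE, CD31+cKIT-GFI1+), the endothelial cells that give rise to blood, from intra-aortic hematopoietic cluster (IAHC) cells, which carried CD31 and cKIT and were taken as GFI1+ IAHC (CD31+cKIT+GFI1+) or, without the reporter, as GFI1- IAHC (CD31+cKIT+GFI1-). Of the kept cells, 22.2% were GFI1+ HE, 30.97% GFI1+ IAHC and 17.4% GFI1- IAHC from E11.5 embryos, while GFI1+ HE from E10.5 made up 14.1% and GFI1+ IAHC from E10.5 14.97%. The 3 cells of E10.5 GFI1- IAHC were not compared. A kept cell had between 134284 and 2296823 counts, with a median of 727732. The libraries were sequenced in batches named GL53, GL58, GL69 and GL78. E11.5 HE and IAHC cells shared plates in GL53, GL58 and GL78, and E10.5 HE and IAHC cells in GL78, but part of the E11.5 HE cells of GL58 and GL78 and all E10.5 HE cells of GL58 lay on plates without IAHC cells, and no plate held cells of both stages. Of the 8 hematopoietic markers, Gfi1 itself was at 0 counts in GFI1- IAHC in GL53 and GL78, but also in E11.5 GFI1+ HE in GL53 and GL58 and in E11.5 GFI1+ IAHC in GL58, so its mRNA did not separate the gates in every batch. The summed level of 8 arterial markers ran from 1335 to 2272 CPM in E11.5 GFI1+ HE against 370 to 480 CPM in E11.5 GFI1+ IAHC, and the 8 endothelial markers summed to between 4097 and 10326 CPM in every group and batch. The 8 hematopoietic markers summed to 185.2, 471.8 and 268.7 CPM in E11.5 GFI1+ HE in GL53, GL58 and GL78. In E11.5 GFI1+ IAHC they summed to 586.2, 271.2 and 565.6 CPM, with the order turned round in GL58. In E11.5 GFI1- IAHC they summed to 181.7 CPM in GL53 and 880.9 CPM in GL78.

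Because no embryo is named, each group counted as 1 sample. Counts were summed over the cells of a group within a batch and given as counts per 1000000 counts (CPM), and groups were compared only inside a batch with at least 10 cells of both, as the log2 ratio of CPM + 1. A gene was measured where the mean over batches reached 10 CPM in the higher group, and it counted as higher or lower where the fold was at least 1.5 in the same direction in every batch used. No p-value was computed. The exact 95% Poisson interval of a summed count covers counting error only, and over the member values of at least 10 CPM its median width was 2.96% to each side and the widest 10.4%. In summed cells, a smaller share of expressing cells and less RNA per cell cannot be told apart.

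Glycolysis splits glucose into pyruvate in the cytosol with a small yield of ATP, and lactate dehydrogenase then regenerates the NAD that keeps the pathway running. Hypoxia-inducible factors raise many of these genes when oxygen is scarce, and they bind a short core sequence in gene promoters. Endothelial cells are known to rely on glycolysis, and fetal and adult HSCs have been studied for their use of it.

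Promoter sequences from RefSeq are shown for 3 members on which the comparisons turn, the lactate dehydrogenase gene Ldha, the glucose transporter gene Slc2a1 and the hexokinase gene Hk2. Each window runs 5′ to 3′ along the gene's strand from 250 bases before to 50 bases after the start of transcription. Capitals mark ACGTG or GCGTG, the cores bound by hypoxia-inducible factors, on either strand (CACGT or CACGC on the strand shown). The palindrome CACGTG, which is also the core bound by Myc, counts once on each strand. The Ldha window lies at chr7:46845554-46845853 on the + strand, that of Slc2a1 at chr4:119108495-119108794 on the + strand and that of Hk2 at chr6:82774405-82774704 on the - strand of build GRCm38.p6.
Ldha: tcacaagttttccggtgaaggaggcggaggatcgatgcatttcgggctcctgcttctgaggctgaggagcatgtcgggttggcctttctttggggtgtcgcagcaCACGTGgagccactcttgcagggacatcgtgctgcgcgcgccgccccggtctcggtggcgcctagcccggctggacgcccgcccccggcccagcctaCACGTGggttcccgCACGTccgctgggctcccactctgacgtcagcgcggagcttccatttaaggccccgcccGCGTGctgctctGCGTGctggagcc
Slc2a1: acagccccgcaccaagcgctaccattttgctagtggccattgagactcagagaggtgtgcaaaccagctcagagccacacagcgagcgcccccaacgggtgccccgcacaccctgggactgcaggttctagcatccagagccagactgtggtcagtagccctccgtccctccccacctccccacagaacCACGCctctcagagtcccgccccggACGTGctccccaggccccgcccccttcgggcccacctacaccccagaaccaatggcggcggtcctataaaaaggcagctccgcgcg
Hk2: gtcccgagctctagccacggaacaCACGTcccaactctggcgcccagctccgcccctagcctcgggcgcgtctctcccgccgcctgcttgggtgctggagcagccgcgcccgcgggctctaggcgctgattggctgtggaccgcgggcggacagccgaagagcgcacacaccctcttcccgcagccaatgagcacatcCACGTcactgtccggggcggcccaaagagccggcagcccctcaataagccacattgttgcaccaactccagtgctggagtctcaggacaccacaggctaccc
The Ldha window held 5 ACGTG and 2 GCGTG matches, that of Slc2a1 1 of each, and that of Hk2 2 ACGTG matches. RefSeq windows were found for 31 of the 32 members, 48 in all because several have more than 1 start, and Slc2a3 had none. ACGTG was found in 47.9% of the member windows against 19.6% of all 32851 windows of the same length, GCGTG in 56.2% against 32.4%, and either in 79.2% against 43.8%. The member windows were also richer in G and C than the median of 52.7% over all windows, and the part of base composition in the motif counts was not tested. A match is a description of the sequence and not a site.

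Levels between genes were compared per length, as CPM per kb of mRNA, over the 12 sums of a group and a batch. Ldha, which makes lactate from pyruvate, was the highest member with a median of 918 CPM per kb. Aldoa (aldolase A) followed with 782 CPM per kb, Pkm (pyruvate kinase, the last step to pyruvate) with 653, Gapdh (glyceraldehyde-3-phosphate dehydrogenase) with 532 and Tpi1 (triosephosphate isomerase) with 427. The ranges of Ldha and Aldoa overlapped, from 712 to 1603 CPM per kb for Ldha and from 556 to 1126 for Aldoa, whereas Tpi1 reached at most 649 CPM per kb and stayed below Ldha. Slc2a1, the main glucose carrier of endothelium, stood eighth at 138.2 CPM per kb, and its partner Slc2a3 at 10.9. At the low end, Pfkfb2 reached a median of 0.249 CPM per kb, Aldoc 0.758, Eno2 0.769 and Pfkfb4 1.55. The chain from aldolase to lactate was thus carried at the mRNA level by 1 abundant form at each step, with Aldoc, Eno2 and Ldhb as minor forms.

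In E11.5 GFI1+ HE against E11.5 GFI1+ IAHC, the glucose carrier gene Slc2a1 and the regulator gene Pfkfb3 were higher and Ldhb, the B form of lactate dehydrogenase, was lower, while no enzyme between uptake and pyruvate met the rule. Slc2a1 stood at 567, 901 and 691 CPM in E11.5 GFI1+ HE in GL53, GL58 and GL78, against 355.2, 409 and 262.3 CPM in E11.5 GFI1+ IAHC. The lowest HE value lay above the highest IAHC value, and the log2 ratio was 1.07 ± 0.37 (SD over 3 batches). Pfkfb3, the enzyme that makes the activator of phosphofructokinase, stood at 40.3, 40.2 and 42.7 CPM in HE against 24.3, 16.2 and 23.9 CPM in IAHC, a log2 ratio of 0.93 ± 0.30. The HE values were nearly equal in the 3 batches, and the IAHC values did not reach them. Ldhb, whose subunit favours the use of lactate, stood at 26.9, 23.3 and 33.05 CPM in HE against 64.9, 93.7 and 62.4 CPM in IAHC, a log2 ratio of -1.37 ± 0.54. Ldha, its abundant partner, had 1312, 2047 and 1677 CPM in HE and 1388, 1290 and 1388 CPM in IAHC, and these values overlapped. Slc2a3, the other glucose carrier, had 19.3, 23.9 and 124.9 CPM in HE against 41.8, 43.2 and 79.7 CPM in IAHC, with the order turned round in GL78. Of the other abundant enzymes, Aldoa had 882, 1534 and 1299 CPM in HE against 997, 1064 and 954 CPM in IAHC, and Pkm had 1199, 1562 and 1997 CPM against 1082, 1473.8 and 1479 CPM.

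Of 28 measured members, 2 were higher and 1 was lower in E11.5 GFI1+ HE, against 2.31% higher and 2.18% lower of 9923 genes measured. The list median was 0.15 (-0.02 in GL53, 0.32 in GL58 and 0.35 in GL78), and the median of all genes was -0.08. In GL53, the batch with the most cells of both gates, the list therefore stood near 0. Pfkfb2, Pfkfb4, Aldoc and Eno2 averaged under 10 CPM over the batches in both gates, as did Pfkfb2 and Aldoc in each of the 6 comparisons. Hk1, Pgm2, Pfkl, Tpi1, Pgk1, Pkm and Pdk2 were above 0 in all 3 batches without reaching 1.5-fold in each. Among G1 cells alone, which left GL53 and GL78, the log2 ratios of Slc2a1 (0.87) and Pfkfb3 (0.75) no longer met the rule in each batch. Without clusters 6 to 10 the Ldhb ratio was smaller, at -0.76, and without cluster 9 Slc2a3 counted as lower too, at -1.01. Germ cell markers moved with this contrast, with a summed level of 0.355 to 1.495 CPM in HE against 147.1 to 957 CPM in IAHC, and their part in the Ldhb difference was not tested.

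**Figure D1:**
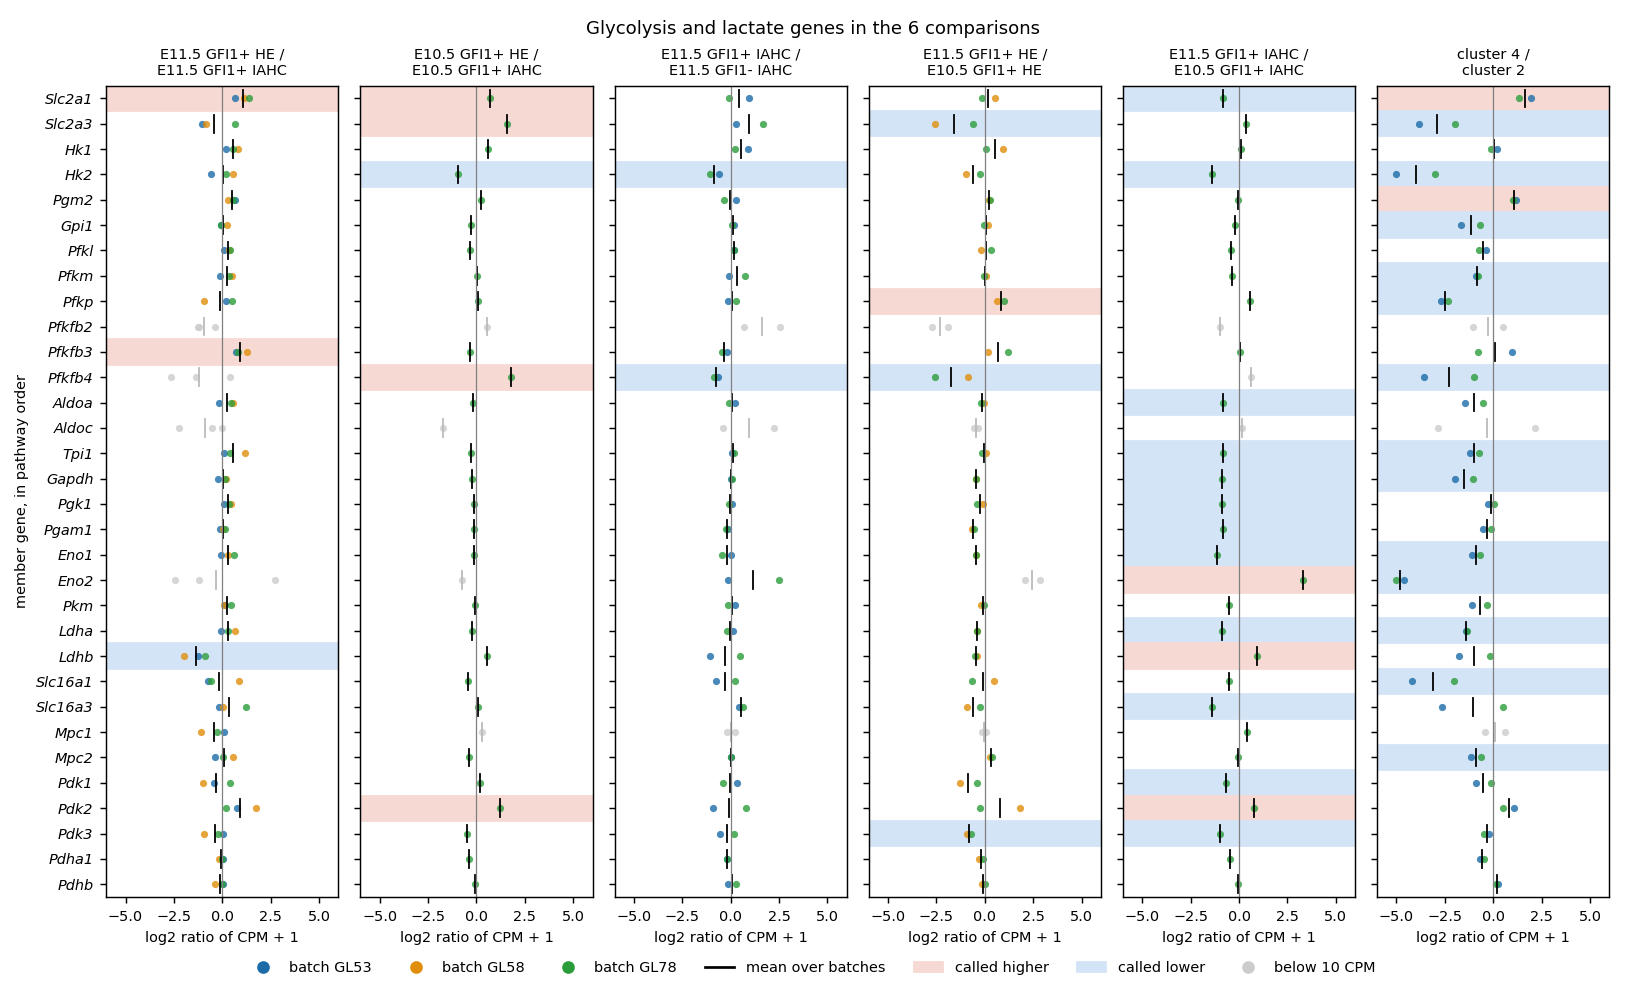
Log2 ratio of CPM + 1 for each of the 32 members (rows, in pathway order) in the 6 comparisons (panels), with a point per batch, a black line for the mean over batches, and red or blue shading where a member counted as higher or lower; grey points lie below 10 CPM. The E11.5 over E10.5 IAHC panel holds 12 members shaded as lower and the cluster panel 13, and the position of Eno2 in the cluster panel depends on the pseudocount because cluster 4 had 0 counts.

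At E10.5 the same pair of gates could be compared in GL78 alone, so no spread between batches exists. Slc2a1 was again higher in E10.5 GFI1+ HE, at 767 CPM (95% interval 761 to 773) against 467 CPM (462 to 472) in E10.5 GFI1+ IAHC, a log2 ratio of 0.72. Hk2, the inducible hexokinase that traps glucose in the cell, was lower, at 21.7 CPM (20.7 to 22.8) in HE against 42.3 CPM (40.8 to 43.8) in IAHC, a log2 ratio of -0.93. In batches without the partner gate, Slc2a1 stood at 629 CPM in HE (GL58) and 434 CPM in IAHC (GL69), and Hk2 at 53.3 and 49.9 CPM. The Slc2a1 values of HE lay above those of IAHC across batches, and the Hk2 values did not separate. Hk1, the constitutive hexokinase, had 111.1 CPM in HE against 74.2 CPM in IAHC in GL78 and stood just under 1.5-fold.

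Slc2a3, Pfkfb4 and Pdk2 also counted as higher in E10.5 GFI1+ HE, and these calls rested on few cells. Slc2a3, a high-affinity glucose carrier, had 191.4 CPM in HE against 63.1 CPM in IAHC, and 32.2% of its HE counts came from 1 cell. Pfkfb4, a relative of Pfkfb3, had 21.6 CPM in HE against 5.47 CPM in IAHC, with 63.6% from 1 cell. Pdk2, a kinase that switches off pyruvate dehydrogenase, had 21.4 CPM in HE against 8.81 CPM in IAHC. Cluster 9, with 12 cells of which 11 were E10.5 GFI1+ HE, held 47060 CPM of 8 megakaryocyte markers in GL78 and stood at 1749 CPM for Slc2a3, 405 for Hk1, 164.8 for Pfkfb4 and 138.8 for Pdk2. Without it the log2 ratios were -0.26 for Slc2a3, -0.11 for Pfkfb4 and -0.17 for Pdk2, against 1.59, 1.81 and 1.19 with it, while Slc2a1 (0.78) and Hk2 (-0.86) still met the rule.

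Of 28 measured members, 4 were higher and 1 was lower in E10.5 GFI1+ HE, against 12.4% higher and 7.48% lower of 9577 genes. The list median was -0.11 and that of all genes -0.02, so both medians lay near 0. All of Aldoa, Tpi1, Gapdh, Pgk1, Pgam1, Eno1, Pkm and Ldha, the chain from aldolase to lactate, had ratios below 0 without reaching 1.5-fold. The share of cells in G1 over all batches was 38.5% in HE against 23.3% in IAHC. In GL78, 39 of 91 HE cells and 24 of 87 IAHC cells were in G1. The part of the cell cycle in these small ratios was not tested.

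Between GFI1+ IAHC and GFI1- IAHC at E11.5 few members differed. Hk2 had 13.6 and 15.4 CPM in GFI1+ IAHC in GL53 and GL78 against 21.4 and 33.3 CPM in GFI1- IAHC, a log2 ratio of -0.84 ± 0.32 (SD over 2 batches). Pfkfb4 had 4.37 and 8.82 CPM in GFI1+ IAHC against 7.55 and 17.1 CPM in GFI1- IAHC, a ratio of -0.77 ± 0.15 near the low end of what was measured. These 2 were lower and 0 were higher of 29 measured members, against 3.94% lower and 1.75% higher of 10345 genes, and the list median was 0.03 with an all-gene median of -0.02. Their partners gave no such difference, as Hk1 had 72.8 and 79.3 CPM in GFI1+ IAHC against 39.3 and 67.05 CPM in GFI1- IAHC, and Pfkfb3 had 24.3 and 23.9 against 28.4 and 32.5 CPM.

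Markers of other cell types moved with this contrast. Clusters 6 to 10 made up 12.9% of E11.5 GFI1+ IAHC cells against 42.96% of GFI1- IAHC cells, mesenchymal markers summed to 50.4 and 29.5 CPM against 2067 and 41.4 CPM in GL53 and GL78, and macrophage markers to 103.4 and 244.3 CPM against 366.1 and 928 CPM. Germ cell markers went the other way, with 156.5 and 147.1 CPM in GFI1+ IAHC against 65.5 and 6.78 CPM in GFI1- IAHC. Without clusters 6 to 10, 0 members were lower, and Eno2 (2.52) and Slc16a3 (0.92), a lactate exporter, counted as higher in GFI1+ IAHC. Hk2 and Pfkfb4 therefore did not meet the rule among the cells of clusters 0 to 5.

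The stage comparison of IAHC had the most members that met the rule among the 5 comparisons of gates and stages. It used GL78 alone, and the rule is easier to meet in 1 batch than in several. The count of members therefore does not rank the comparisons. Of all genes measured, 19.8% were higher and 9.16% lower here. In E11.5 GFI1+ HE over IAHC, read in GL53, GL58 and GL78, these shares were 2.31% and 2.18%. In GL78, the 1 batch with both stages, Ldha fell to 1388 CPM in E11.5 GFI1+ IAHC (1380 to 1397) against 2600 CPM in E10.5 GFI1+ IAHC (2588 to 2611), a log2 ratio of -0.90. Eno1 (enolase, the step before pyruvate kinase) had 773 CPM at E11.5 against 1728 CPM at E10.5, and Aldoa had 954 against 1701 CPM. Gapdh had 1077 against 1992 CPM and Tpi1 562 against 1003 CPM. These log2 ratios were -1.16, -0.83, -0.89 and -0.84 for Eno1, Aldoa, Gapdh and Tpi1.

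Pgk1, which makes the first ATP of the lower chain, had 220 CPM at E11.5 against 406 CPM at E10.5 (log2 ratio -0.88), and Pgam1, the next enzyme, had 123.8 against 217.8 CPM (-0.81). At the entry, Slc2a1 had 262.3 against 467 CPM (-0.83) and Hk2 had 15.4 against 42.3 CPM (-1.40). At the exit, Slc16a3 had 28.4 against 75.4 CPM (-1.38), whereas Slc16a1, the carrier that works in both directions, had 34.3 against 48.8 CPM and did not meet the rule. Pdk1 and Pdk3, further kinases of pyruvate dehydrogenase, were lower, at 44.2 against 70.3 CPM (-0.66) and 31.2 against 63.2 CPM (-0.99). Some genes of uptake, of the enzyme chain and of lactate export were thus lower at E11.5. Slc2a3, Hk1 and Pfkp had ratios above 0 without meeting the rule.

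The members that met the rule in the other direction were Ldhb, Pdk2 and Eno2. Ldhb had 62.4 CPM in E11.5 GFI1+ IAHC against 32.2 CPM in E10.5 GFI1+ IAHC (log2 ratio 0.93), and Pdk2 had 15.8 against 8.81 CPM (0.78). Ldhb therefore stood opposite to Ldha across the stages. Eno2, the enolase best known from neurons, had 20.5 CPM (19.4 to 21.6) from 7 of 89 cells at E11.5 against 1.15 CPM (0.915 to 1.42) from 3 of 87 cells at E10.5, a ratio of 3.32. Without clusters 4 and 2 the Eno2 ratio was -1.37, so the sign of that value rested on the cells of these clusters.

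Of 29 measured members, 12 were lower and 3 were higher in E11.5 GFI1+ IAHC, against 9.16% lower and 19.8% higher of 9797 genes. Pkm, at 1479 against 2125 CPM, and Hk1, at 79.3 against 74.2 CPM, were among those that did not meet the rule. The list median was -0.47 and the all-gene median 0.07, and 21 members lay below 0. The share of all genes below 0 was not computed. In batches with a single stage, Ldha stood at 1388 and 1290 CPM at E11.5 (GL53, GL58) against 2831 CPM at E10.5 (GL69), and Aldoa at 997 and 1064 against 1689 CPM. The stages lay on different plates in every batch, so stage and plate cannot be told apart. Over all batches, the share of G1 cells was 55.8% at E11.5 against 23.3% at E10.5 and the median mitochondrial share of counts 2.13% against 1.23%. In GL78, 51 of 89 cells were in G1 at E11.5 against 24 of 87 at E10.5. Among G1 cells alone the list median was -0.32, with 8 members lower and 3 higher. The all-gene median among G1 cells was 0.04, and the share of all genes that met the rule there was not computed. Marker sums also differed in GL78, with 244.3 CPM of macrophage markers at E11.5 against 101.9 CPM at E10.5, where C1qa, C1qb, C1qc and Adgre1 were at 0, and 223.045 against 72.08 CPM of megakaryocyte markers. Hematopoietic markers summed to 565.6 against 839 CPM and endothelial markers to 6117 against 4097 CPM. The part of these cells in the stage ratios was not tested.

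In GFI1+ HE the same stage contrast was weaker and could be read in GL58 and GL78. Pfkp, a phosphofructokinase form, was the 1 member counted as higher, with 76.03 and 91.98 CPM in E11.5 GFI1+ HE against 48.9 and 45.8 CPM in E10.5 GFI1+ HE, a log2 ratio of 0.81 ± 0.26. Its relatives had 320.9 and 355.7 CPM (Pfkl) and 29.3 and 28.2 CPM (Pfkm) at E11.5 against 366.1 and 283.9 CPM and 27.7 and 29.3 CPM at E10.5, with no common direction for either. Pdk3 was lower, with 35.7 and 26.5 CPM at E11.5 against 68.9 and 44.9 CPM at E10.5, a ratio of -0.83 ± 0.13. Its relatives did not meet the rule, with 54.5 and 59.3 CPM (Pdk1) and 22.2 and 18.1 CPM (Pdk2) at E11.5 against 135.1 and 78.7 CPM and 5.63 and 21.4 CPM at E10.5.

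Slc2a3 and Pfkfb4 were the other members lower in E11.5 GFI1+ HE. Slc2a3 had 23.9 and 124.9 CPM at E11.5 against 147.5 and 191.4 CPM at E10.5, a log2 ratio of -1.59 ± 1.39, and 71.8% of its E11.5 counts in GL78 came from 1 cell. Pfkfb4 had 0 and 2.78 CPM at E11.5 against 0.853 and 21.6 CPM at E10.5. Without cluster 9, none of Pfkp (0.75), Pdk3 (-0.66), Slc2a3 (-0.94) and Pfkfb4 met the rule, whereas Pgam1 was lower (-0.70) and Pdk2 higher (1.41). Megakaryocyte markers summed to 30.2 and 2986 CPM at E11.5 against 765 and 3744 CPM at E10.5.

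Of 28 measured members, 1 was higher and 3 were lower, against 6.86% higher and 5.19% lower of 9808 genes, and the list median was -0.13 with an all-gene median of -0.01. Of the measured members, 16 lay below 0 in both batches and 5 above 0 in both. The share of all genes on 1 side of 0 in both batches was not computed, so these counts have no background. Aldoa, Gapdh, Pgk1, Pgam1, Eno1, Pkm and Ldha were among the 16, with Ldha at 2047 and 1677 CPM at E11.5 against 2758 and 2235 CPM at E10.5. Over all batches, with GL53 included, the E11.5 HE cells were 59.9% in G1 against 38.5% at E10.5. Their median mitochondrial share was 2.08% against 1.27%. In GL78, 23 of 40 cells were in G1 at E11.5 against 39 of 91 at E10.5. The part of phase and mitochondrial share in these ratios was not tested.

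Stage was then set side by side within clusters, since the clusters hold different shares of the 2 stages. In GL78, clusters 0, 1, 2, 3 and 4 each held at least 10 cells of both stages, and 22 members were measured in all 5. Of these, 11 lay below 0 in all 5 clusters (Slc2a1, Pfkl, Aldoa, Tpi1, Gapdh, Pgk1, Pgam1, Eno1, Pkm, Ldha and Pdk3) and only Mpc2, a subunit of the mitochondrial pyruvate carrier, lay above 0 in all 5, against 11.8% below and 7.92% above of 7887 genes. Ldha had 1462.98, 1775, 1658, 1687 and 316.4 CPM at E11.5 in clusters 0 to 4 against 2236, 3163, 2320, 3263 and 976 CPM at E10.5. Eno1 had 837, 1230, 687, 1091 and 327.9 CPM at E11.5 against 1945, 2348, 1071, 2463 and 697 CPM at E10.5. The ratios ran from -1.62 to -0.48 for Ldha and from -1.22 to -0.64 for Eno1. The list medians were -0.22, -0.54, -0.21, -0.64 and -1.09 in clusters 0 to 4, the all-gene medians 0.073, 0.028, -0.011, 0.015 and 0.040, and cluster 4 had 10 cells at E11.5 against 28 at E10.5. The gates were pooled here and their mix differed by stage, as cluster 2 held 1 GFI1+ HE and 15 GFI1+ IAHC cells at E11.5 against 9 and 36 at E10.5, with 7 GFI1- IAHC cells at E11.5 alone, and the part of this mix was not tested. The plate difference between stages is the same in every cluster, so these 5 values do not separate stage from plate.

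**Figure D2:**
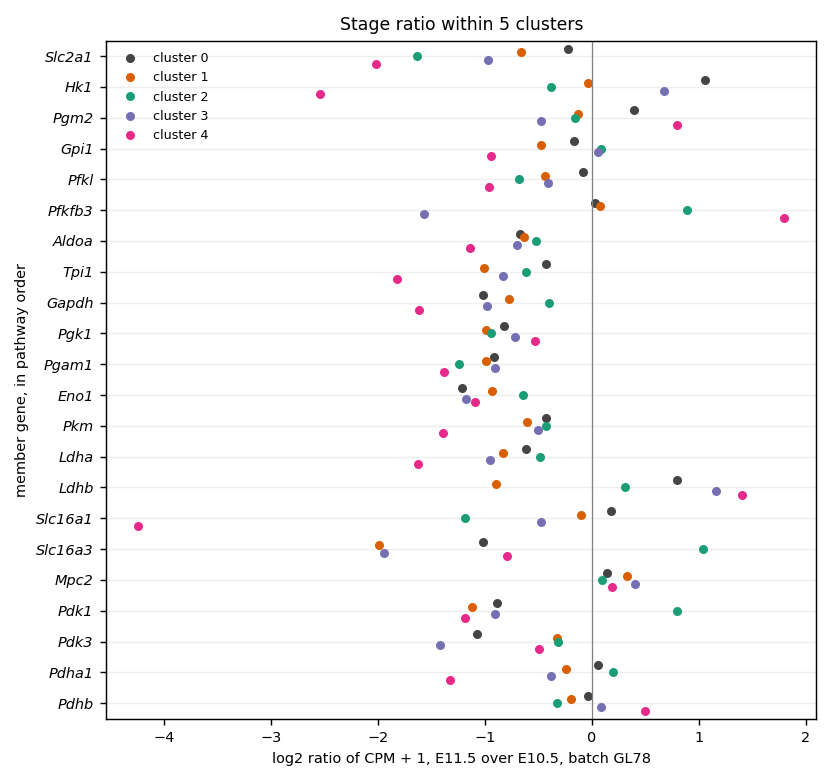
Log2 ratio of CPM + 1, E11.5 over E10.5, for the 22 members measured in all 5 clusters (rows), with a coloured point for each of clusters 0 to 4 of batch GL78. Points of the lower chain lie left of 0 in each cluster, such as Pgam1 at -1.38 to -0.90, whereas those of Hk1 and Pfkfb3 lie on both sides.

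The study placed hemogenic endothelium on the path to HSCs in cluster 4 and HSCs in cluster 2. Since the clusters were built from the genes of these same cells, the values of cluster 4 against cluster 2 are a description. Cluster 4 had 76 cells, of which 42 were E11.5 and 27 were E10.5 GFI1+ HE, and cluster 2 had 28 cells in GL53 and 68 in GL78. All cells of GL53 were E11.5. In GL78 cluster 4 held 10 E11.5 and 28 E10.5 cells, and cluster 2 held 23 and 45. The SD over these 2 batches therefore covers a difference in stage mix too. Endothelial markers summed to 13516 and 9400 CPM in cluster 4 in GL53 and GL78 against 1629 and 1634 CPM in cluster 2, and hematopoietic markers to 241.7 and 280.8 CPM against 3225 and 2373 CPM. The 32 members summed to 3357 and 6674 CPM in cluster 4 in GL53 and GL78 against 6694 and 10232 CPM in cluster 2. Within GL78 the sums were 3302 CPM at E11.5 and 7684 CPM at E10.5 in cluster 4, and 8380 and 10915 CPM in cluster 2. Among clusters with at least 10 cells in the batch, cluster 4 was the lowest in GL53 and GL78. The others ran from 5797 to 8657 CPM in GL53 and from 7417 to 16556 CPM in GL78. The spread between cells was wide, from 1585 to 17133 CPM in cluster 4 in GL78.

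**Figure D3:**
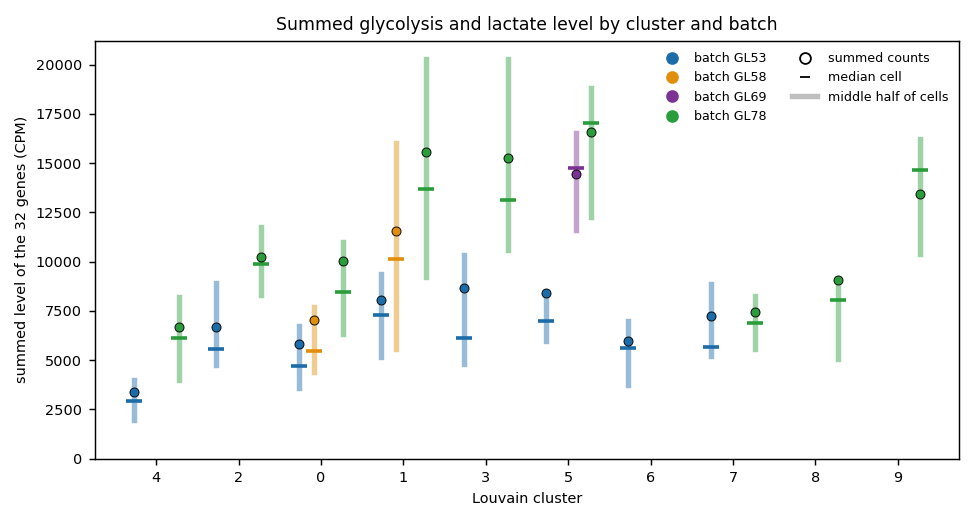
Summed level of the 32 members in CPM (vertical axis, from 0) by Louvain cluster and batch, with circles for summed counts, dashes for the median cell and bars from the lower to the upper quartile of the cells. Only clusters with at least 10 cells in a batch are drawn, and cluster 4 has circles in GL53 and GL78 alone. There its circle is the lowest drawn, at 3357 CPM in GL53 and 6674 CPM in GL78, beside 6694 and 10232 CPM in cluster 2.

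Slc2a1 and Pgm2 were the members that counted as higher in cluster 4. Slc2a1 had 363.2 and 693 CPM in cluster 4 in GL53 and GL78 against 94.4 and 274.8 CPM in cluster 2, a log2 ratio of 1.63 ± 0.43. Slc2a3 had 6.10 and 45.5 CPM in cluster 4 against 101.4 and 181.7 CPM in cluster 2, a ratio of -2.91 ± 1.33. The carriers thus went opposite ways, and Slc2a3 made up 1.36% and 5.13% of the pair per kb in cluster 4 against 46.9% and 35.2% in cluster 2. Hk2 had 0.774 and 6.27 CPM in cluster 4 against 57.2 and 56.6 CPM in cluster 2, a ratio of -4.01 ± 1.45, whereas Hk1 had 114.4 and 85.4 CPM against 100 and 92.5 CPM. Hk2 was therefore 0.471% and 4.88% of the hexokinase pair per kb in cluster 4 against 28.5% and 29.9% in cluster 2.

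Pgm2, a phosphoglucomutase that interconverts sugar phosphates, was the other member higher in cluster 4, with 85.2 and 76.1 CPM against 37.4 CPM in each batch of cluster 2, a log2 ratio of 1.09 ± 0.11. Gpi1, the isomerase after hexokinase, had 145.3 and 303.8 CPM in cluster 4 against 461 and 483 CPM in cluster 2 (-1.16 ± 0.70). At the committed step, Pfkp had 4.11 and 4.24 CPM against 32.2 and 25.3 CPM (-2.51 ± 0.26) and Pfkm had 16.4 and 26.5 CPM against 31.3 and 46.01 CPM (-0.83 ± 0.09). Pfkl, the main form, had 87.3 and 115.5 CPM in cluster 4 against 113.2 and 192.4 CPM in cluster 2 and did not meet the rule. Of the regulators, Pfkfb4 had 0 and 7.34 CPM in cluster 4 against 11.1 and 15.5 CPM in cluster 2, and Pfkfb3 changed direction between batches, with 47.6 and 11.7 CPM against 23.5 and 20.8 CPM.

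Along the lower chain, Gapdh had 73.8 and 775 CPM in cluster 4 against 294.2 and 1588 CPM in cluster 2 (log2 ratio -1.51 ± 0.67), Tpi1 278.8 and 451 against 652 and 751 CPM (-0.98 ± 0.35), and Eno1 182.8 and 612 against 391 and 968 CPM (-0.88 ± 0.31). Aldoa, at 422 and 906 against 1160 and 1297 CPM, and Pkm, at 353.9 and 890 against 770 and 1097 CPM, were below cluster 2 too but short of 1.5-fold in GL78. Ldha had 579 and 824 CPM in cluster 4 against 1541 and 2142 CPM in cluster 2, a ratio of -1.39 ± 0.02 that was nearly equal in both batches. Ldhb had 19.9 and 26.6 CPM against 71.3 and 30.4 CPM, below cluster 2 in both batches but short of 1.5-fold in GL78. Eno2 had 0 counts in cluster 4 in both batches against 417 and 1626 counts in cluster 2. With 3 counts as the floor in each batch, the bound was 163.3-fold lower in GL53 and 317.6-fold lower in GL78. The cluster 2 counts came from 4 of 28 and 7 of 68 cells. In GL78 they came from E11.5 cells alone (23 cells). The 45 E10.5 cells of cluster 2 had 0 CPM, as did cluster 4 at both stages. The GL78 bound therefore does not hold among E10.5 cells.

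For lactate and pyruvate transport, Slc16a1 had 1.74 and 13.7 CPM in cluster 4 against 49.9 and 59.8 CPM in cluster 2, a log2 ratio of -3.13 ± 1.54. Slc16a3 had 4.36 and 22.7 CPM against 33.0 and 15.5 CPM, with opposite signs in GL53 and GL78. Slc16a1 was therefore 28.1% and 37.2% of the pair per kb in cluster 4 against 59.7% and 79.1% in cluster 2. Mpc2 had 29.2 and 32.3 CPM against 66.8 and 51.4 CPM (-0.91 ± 0.36), and Pdhb, a subunit of pyruvate dehydrogenase, lay above 0 in both batches with 224.5 and 205.4 CPM against 190.7 and 188.7 CPM. Pdk2 was above cluster 2 too, with 45.97 and 17.5 CPM against 21.5 and 11.9 CPM, but short of 1.5-fold in GL78.

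Of 29 measured members, 13 were lower and 2 higher in cluster 4, beside 20.5% lower and 18.1% higher of 10554 genes. The list median was -0.88, with -1.12 in GL53 and -0.65 in GL78, and it was the same with Eno2 at its bound, whereas the all-gene median was -0.15. In all, 21 members lay below 0 in both batches and 4 above 0 in both, and the shares of all genes that did so were not computed. Cells in G1 were 81.6% of cluster 4 against 44.95% of cluster 2 over all batches, and among G1 cells alone the list median was -0.78, with 12 members lower and 1 higher. The all-gene median among G1 cells was -0.13, and the share of all genes that met the rule there was not computed.

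The share of each form at a step is given by cluster as a description. The clusters were built from the genes of these same cells, and each gate mixes several of them. A wider range over clusters than over gates is therefore no result of its own. Slc2a3 was 54.2% of its pair per kb in cluster 8 and 80.1% in cluster 9, and at most 20.02% in any gate. Ldhb was 32.7% of lactate dehydrogenase in cluster 6 and 30.9% in cluster 8, and at most 6.33% in the other clusters. Hk2 reached 53.8% in cluster 6 and 62.6% in cluster 8. Clusters 6 and 8 held the mesenchymal and germ cell markers, with 6113 CPM of mesenchymal markers in cluster 6 (GL53) and 3244 CPM of germ cell markers in cluster 8 (GL78), and cluster 9 the megakaryocyte markers. Eno2 was 4.21% and 2.33% of the enolases in cluster 2 and 2.03% in cluster 6, and at most 0.490% in the others. In cluster 4 the shares of Slc2a3, Hk2, Pfkp and Eno2 were all low, so that Slc2a1, Hk1, Pfkl and Eno1 made up most of these families. A low Slc2a3 level beside Slc2a1 was not particular to cluster 4. In E11.5 cells of GL78, Slc2a3 had 6.33 CPM beside 414 CPM of Slc2a1 in cluster 0. In cluster 3 it had 4.16 CPM beside 299.3 CPM.

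**Figure D4:**
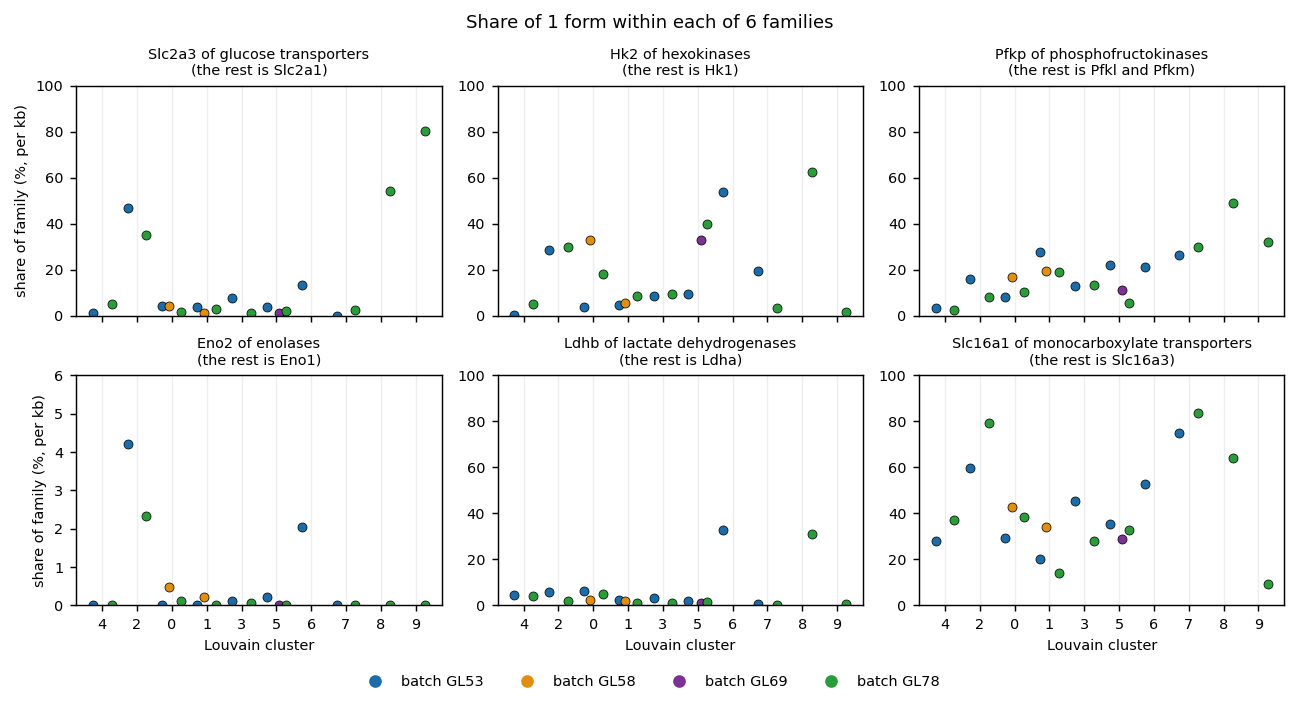
Share of a named form in its family, in percent of the family's CPM per kb (vertical axis, 0 to 100, and 0 to 6 for Eno2), by Louvain cluster, with a point for each batch. Slc2a3 and Hk2 lie low in cluster 4 (1.36% and 0.471% in GL53) and high in cluster 2 (46.9% and 28.5% in GL53), and Ldhb lies above 30% in clusters 6 and 8.

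Cycling cells (S and G2M phases as called by the study with Cyclone) were then set against G1 cells inside each of 9 strata of a gate, stage and batch. The list median lay above 0 in 8 of 9 strata, from -0.07 to 0.63, and the all-gene median ran from -0.14 to 0.02. Aldoa and Mpc1 were higher in cycling cells in 9 of 9 strata, and Gapdh, Pgk1, Pgam1, Eno1, Pkm, Slc16a1 and Slc16a3 in 8 of 9. Eno1 had 2141 CPM in cycling against 824 CPM in G1 cells of E10.5 GFI1+ HE in GL78. Pdk2 went the other way, higher in cycling cells in 1 of 9 strata, with 6.24 CPM in cycling against 42.6 CPM in G1 cells of the same group. Slc2a1 was on either side, above 0 in 4 of 9 strata. The share of all genes above 0 in as many strata was not computed, so the counts of strata have no background. The phases were called from the same counts, so these values are a description.

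Across cells, the level of each member was also compared with the summed level of the other members, by Spearman's rho within the 8 strata of at least 40 cells. The members' median rho lay between 0.24 and 0.51, and that of the other genes between 0.004 and 0.12. Of 26 members with values in all 8 strata, 7 reached at least 0.4 in each (Aldoa, Tpi1, Gapdh, Pgam1, Eno1, Pkm and Ldha), and Eno1 ran from 0.71 to 0.86. Ldhb ran from -0.15 to 0.10, Pdhb from -0.21 to 0.16 and Pdk2, in 6 strata, from -0.22 to -0.01. The cells of a stratum share a batch and differ in depth and phase, and the part of depth, phase and the level of each gene in these coefficients was not tested.

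Some members differed between batches within 1 gate, and some share much of their mRNA sequence with other annotated genes. In E11.5 GFI1+ IAHC, sorted by the same gate, Gapdh had 1077 CPM in GL78 and 263.7 CPM in GL53, a log2 ratio of 2.03. Pgam1 had 123.8 against 47.1 CPM (1.38), Pgk1 220 against 122.4 CPM (0.84) and Eno1 773 against 478 CPM (0.69), whereas Ldha had 1388 CPM in both, Aldoa 954 against 997 CPM and Tpi1 562 against 593 CPM. Of the 75-base stretches of their mRNA, 80.3% for Gapdh, 67.5% for Pgk1, 65.4% for Eno1 and 40.6% for Pgam1 occurred in another annotated gene, against 5.4% for Ldha, 2.5% for Tpi1 and 1.5% for Aldoa. Eno2 (1.71) and Slc2a3 (0.92) were higher in GL78 too, with 0% of such stretches. In E11.5 GFI1+ HE, Gapdh had 1209 CPM in GL78 against 225.4 CPM in GL53 (2.42), and Slc2a3 had 124.9 against 19.3 CPM (2.63). Members with 0% of such stretches ran there from -1.64 (Aldoc) to 2.93 (Eno2), both under 10 CPM. Reads from near-identical copies can be split or dropped in counting, so the levels of Gapdh, Pgk1, Eno1 and Pgam1 are uncertain. The cause of the batch differences was not tested. Ratios within a batch, as given above, do not set GL78 against GL53.

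**Figure D5:**
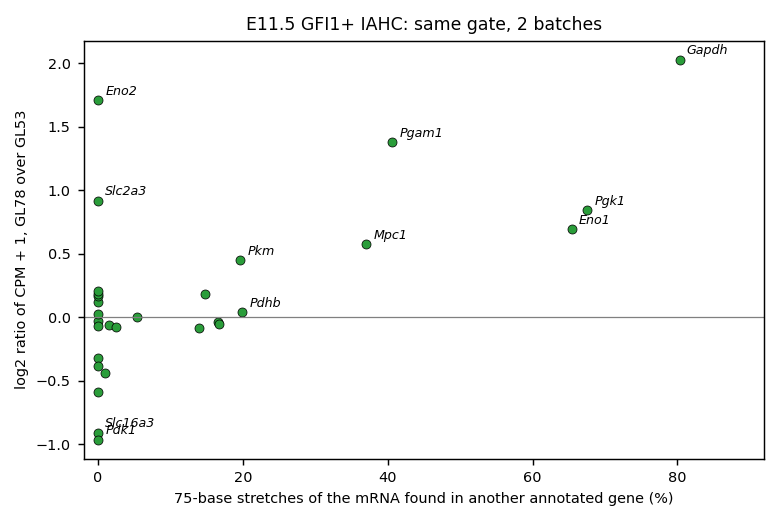
Log2 ratio of CPM + 1 in GL78 over GL53 for E11.5 GFI1+ IAHC (vertical axis) against the percentage of 75-base stretches of the mRNA that occur in another annotated gene (horizontal axis), with a point per member. Gapdh lies at 80.3% and 2.03, Pgam1 at 40.6% and 1.38, and Ldha at 5.4% and 0.00.

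Other genes of the pathway and its regulators were read from 6 lists, with values as log2 ratios and the SD over batches where more than 1 was used. The shares of all genes that met the rule, given above for each comparison, are the background of these calls. Of the 10 hypoxia factors and their regulators, Epas1 (the subunit HIF2A) was higher in E11.5 GFI1+ HE than in IAHC (1.54 ± 0.02), in E10.5 GFI1+ HE than in IAHC (1.68), in E11.5 than in E10.5 HE (1.23 ± 0.79) and IAHC (0.81), and in cluster 4 than in cluster 2 (5.03 ± 1.07). Hif3a was higher at E11.5 in HE (1.08 ± 0.41) and IAHC (0.72), in GFI1+ over GFI1- IAHC (1.14 ± 0.56) and in cluster 4 (1.21 ± 0.63). Arnt was higher (0.59) and Egln3 lower (-1.07) in E11.5 IAHC than in E10.5 IAHC, and Egln3 (-2.15 ± 1.34) and Arnt2, with a mean of 1.58 against 12.6 CPM, were lower in cluster 4. Arnt2 was also lower in GFI1+ than in GFI1- IAHC (-1.84 ± 0.63). Epas1 was thus higher where the members that met the rule were mostly lower, in the cluster and both stage comparisons. It was also higher where they were mostly higher, in HE against IAHC at both stages. The relation of Epas1 to the members was not tested.

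Of 21 hypoxia response genes outside glycolysis, 20 were found. In cluster 4, Vegfa (2.89 ± 1.45), P4ha1 (1.59 ± 0.95), P4ha2 (1.56 ± 0.29), Ddit4 (1.51 ± 1.03) and Ankrd37 (0.75 ± 0.08) were higher, and Mif (-2.04 ± 0.86), Cited2 (-2.54 ± 1.64) and Car9 (-1.44 ± 0.95) were lower, 5 and 3 of 17 measured, beside 18.1% higher and 20.5% lower of all genes. In E11.5 against E10.5 IAHC, Ndrg1 (2.89), Bhlhe40 (1.54), Mxi1 (1.18) and Kdm3a (0.80) were higher and Stc2 (-1.36), Cited2 (-1.18), Mif (-1.03) and Higd1a (-0.79) were lower, 4 and 4 of 16, beside 19.8% and 9.16%. In E11.5 against E10.5 HE, Bhlhe40 (2.00 ± 0.24), Ndrg1 (1.90 ± 1.06), Adm (1.76 ± 0.06) and Ankrd37 (0.91 ± 0.23) were higher and Mif (-0.79 ± 0.01) and Ak4 (-0.79 ± 0.25) were lower, 4 and 2 of 17, beside 6.86% and 5.19%. The list gave no single direction in any of these. In HE against IAHC, Ankrd37 was higher at E11.5 (1.29 ± 0.56), and at E10.5 Mxi1 (1.13), Ndrg1 (1.11) and Bnip3l (0.93) were higher and Stc2 (-0.95) and Cited2 (-0.66) lower. Cited2 was also lower in GFI1+ than in GFI1- IAHC (-1.26 ± 0.11).

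Of the 7 genes of the Myc family list, 6 were measured in the cluster comparison, and Myc (-2.36 ± 0.51), Mycn (-2.96 ± 0.58), Max (-1.32 ± 0.73) and Mycl, which had 0 CPM, were lower in cluster 4. These were 4 of 6 measured, beside 20.5% lower of all genes. In E11.5 against E10.5 IAHC, Mycn was lower (-1.09) and Mlxip higher (0.66), 1 each of 5 measured, beside 9.16% lower and 19.8% higher of all genes. No gene of the list met the rule in the other comparisons. Of the 8 pentose phosphate genes, Prps1 (-2.62 ± 0.36), Tkt (-1.24 ± 0.80) and Pgd (-0.93 ± 0.24) were lower in cluster 4, Rpe (-0.97) and Tkt (-0.65) in E11.5 IAHC, and Prps1 (-0.75) in E10.5 HE against IAHC. These were 3, 2 and 1 of 7 measured, beside 20.5%, 9.16% and 7.48% lower of all genes. Of the 16 tricarboxylic acid cycle genes, all measured, Idh3a (-1.80 ± 0.39), Idh3g (-1.06 ± 0.49) and Suclg2 (-1.05 ± 0.05) were lower in cluster 4 and 0 met the rule in the 5 comparisons of gates and stages. The 3 of 16 in cluster 4 lay near the 20.5% lower of all genes.

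A last list held 33 further genes of glycolysis, lactate and pyruvate entry, of which 14 to 17 were measured. In cluster 4, Bpgm (2.63 ± 0.62) and Slc2a12 (a mean of 12.4 against 0.162 CPM) were higher, and Dlat (-0.74 ± 0.07), Tigar (-2.59 ± 1.23) and Eno3 (a mean of 3.24 against 23.97 CPM) were among the lower genes. Tigar, which lowers the activator of phosphofructokinase, was also lower in E11.5 GFI1+ HE than in IAHC (-1.08 ± 0.16), where Pfkfb3 was higher. In E11.5 against E10.5 IAHC, Slc2a10 (2.05), Slc2a8 (1.04) and Pdp1 (0.73) were higher and Pcx (-0.998) and Dlat (-0.76) lower. In E11.5 against E10.5 HE, Slc2a10 was higher (a mean of 28.01 against 0.748 CPM) and Eno3 lower (-2.12 ± 1.35), and in E10.5 HE against IAHC, Slc2a8 was higher (1.08) and Pcx lower (-1.40).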

How the data were processed

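Each library was 1 cell, sequenced as paired 75-base reads. To get the deposited counts, the authors mapped to mm10 with STAR 2.7.3 and counted with HTSeq 0.9.1, per the submitters' processing notes, with annotation release, strand setting and duplicate handling not given in the sources used here. Cells were left out by the authors for few genes, few counts or a high mitochondrial fraction, a column deposited on a scale of 0 to 1. Louvain clusters were built by the authors with Scanpy 1.4.4 after regressing out depth, mitochondrial share and cell cycle, without batch correction. These cluster and Cyclone phase columns were used as deposited, and the normalized table was not used.

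Symbols came from GENCODE M21 (45229 of 46078 genes, with 0.0581% of counts unmatched), and 92 spike-in rows held 0 reads. The median GC share of promoter windows was 62.0% for members and 52.7% for all. Counts were summed per group or cluster and batch and scaled to 1000000 (CPM). Ratios used a pseudocount of 1 CPM, a minimum of 10 CPM, a fold of 1.5 and at least 10 cells, with batches weighted equally. The kept cells numbered 172 (E11.5 GFI1+ HE), 240 (GFI1+ IAHC) and 135 (GFI1- IAHC) at E11.5, and 109 (GFI1+ HE) and 116 (GFI1+ IAHC) at E10.5, with 134284 to 2296823 counts each. Cells are not replicates and no embryo is named, so no test was made. Kept cells with the same counts as another numbered 0. Plain values are printed for members that met the fold rule, for their isozyme partners and for the 5 highest, and of the other lists for genes that met it, apart from 1 that is not reported here. Members and lists were chosen with earlier results of these data known. Alternatives were other pseudocounts, no minimum, median-of-ratios scaling, means over cells, left-out clusters or batches, G1 cells only, all sequenced cells, and cells thinned to 50000 counts. Scripts were tested on simulated data and ran under Python 3.11.15, numpy 2.4.6, pandas 2.3.3 and scipy 1.17.1.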

Additional observations from a re-analysis of the deposited data

Results flagged for a closer look

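Among members that met the 1.5-fold rule in at least 1 of the contrasts compared, 2 had HE against IAHC ratios of opposite sign at the 2 stages. Pfkfb3 was 0.93 at E11.5 against -0.31 at E10.5 (log2 ratio of CPM + 1), a difference of 1.24, and Ldhb was -1.37 at E11.5 against 0.55 at E10.5, a difference of -1.91. Under the same condition, 2 members had E11.5 against E10.5 ratios of opposite sign in the 2 gates. Slc2a3 was -1.59 in GFI1+ HE and 0.33 in GFI1+ IAHC, a difference of -1.93, and Ldhb was -0.47 in HE and 0.93 in IAHC, a difference of -1.40. The batches of each contrast all lay on 1 side of 0, and the E10.5 HE against IAHC and the IAHC stage contrasts rest on GL78 alone. The differences were not tested.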

How the results depend on the processing

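Of 465 alternative values of 44 single-gene results, 459 kept their direction and 6 were reversed. In E10.5 GFI1+ HE over IAHC, these were Slc2a3 (-0.18) and Pdk2 (-0.078) without clusters 6 to 10, and Slc2a3 (-0.26), Pfkfb4 (-0.11) and Pdk2 (-0.17) without cluster 9. In E11.5 over E10.5 GFI1+ IAHC it was Eno2 without clusters 4 and 2 (-1.37). Leaving out cluster 9, or clusters 4 and 2, was chosen after seeing the data. The count of members in E10.5 HE over IAHC was 2 without clusters 6 to 10, 3 without cluster 9 and 15 among G1 cells (list median -0.21), against 5. In GFI1+ over GFI1- IAHC it was 0 with a pseudocount of 5 CPM and 1 with the mean of cell CPM, with G1 cells or with thinned cells, against 2, and the list median was 0.089 over all sequenced cells. In E11.5 over E10.5 HE it was 2 without clusters 6 to 10 or without cluster 9 and 13 among G1 cells (GL78 alone), against 4. Its list median was -0.19 with the mean of cell CPM, -0.20 without clusters 4 and 2, -0.061 among G1 cells (GL78 alone) and -0.23 in thinned cells, against -0.13. In E11.5 over E10.5 IAHC the list median was -0.77 without clusters 4 and 2, -0.32 among G1 cells and -0.33 in thinned cells, against -0.47. Leaving out 1 batch at a time gave list medians of 0.086 to 0.37 and counts of 3 to 5 in E11.5 HE over IAHC, 0.039 to 0.073 and 6 to 7 in GFI1+ over GFI1- IAHC, -0.22 to -0.16 and 6 to 9 in E11.5 over E10.5 HE, and -1.12 to -0.65 and 17 to 23 in cluster 4 over cluster 2. The rule asks for the fold in every batch used, so it is easier to meet where a batch is left out or drops out. Counts from settings with different batches are therefore not comparable. The shares of all genes that met the rule under these alternatives were not computed. The causes of other changes were not tested. Without the minimum of 10 CPM the all-gene median of the cluster comparison was 0. No paired analysis was possible because each cell has its own number in the labels and groups share only batch and plate names, and the ratios were already taken within batches.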
